A study of Mus musculus with 6 samples.

Results

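The 10 genes described here encode the parts that make and load classical MHC class I molecules. They are the heavy chains H2-K1 and H2-D1, the light chain B2m, the peptide transporter subunits Tap1 and Tap2, the loading chaperone Tapbp, the immunoproteasome subunits Psmb8, Psmb9 and Psmb10, and the transactivator Nlrc5. They were chosen by gene symbol from the tables of 24346 genes, and all 10 passed the expression filter that left 11518 genes to test. RNA sequencing was done on CD11c+ dendritic cells of mouse spleen, with 3 libraries from cells given IL-33, an alarmin of the IL-1 family, and 3 from cells given PBS, its vehicle. Cells of both groups were sorted with an autoMACS, and the sources used here do not give strain, age, dose, time or route. Whether replicate libraries stem from different mice or cultures is likewise not stated, so p-values measure the spread between libraries, which may be technical. In sorted bulk samples, fewer cells of a type and less RNA per cell cannot be told apart.

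Class I molecules show peptides from the inside of a cell to CD8 T cells and are read by natural killer (NK) cells. Proteins are cleaved by the proteasome, in which Psmb8, Psmb9 and Psmb10 replace the catalytic subunits Psmb5, Psmb6 and Psmb7 to form the immunoproteasome. The peptides enter the endoplasmic reticulum through the Tap1-Tap2 transporter, and tapasin, the product of Tapbp, holds empty heavy chains beside it until a peptide binds. Dendritic cells express this machinery constitutively, and NLRC5, interferon-induced factors and NF-kappaB are known to act on its promoters.

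Class I promoters carry a kappa-B element, an interferon regulatory factor (IRF) element and an SXY module that ends in a Y box, and NLRC5 is known to act through that module. RefSeq promoters (GRCm38.p6) were matched for 8 of the 10 genes, Tap2 and Nlrc5 being the other two. The sequences show the elements that both heavy chain genes hold and the module that they share with B2m. In the upstream 250 bases, the letters GGGANTCCC (kappa-B), AANNGAAA (IRF), TGACG (CRE core) and ATTGG (Y box) were searched on both strands. Capitals mark the kappa-B element and the IRF element, which lies on the other strand, in the first pair of stretches. The pair comes from chr17:34000430-34000457 (minus strand) upstream of H2-K1 and from chr17:35262924-35262951 (plus strand) at H2-D1, which lies downstream of the first annotated H2-D1 start in GENCODE.
H2-K1: GGGATTCCCcatctccacagTTTCACTT
H2-D1: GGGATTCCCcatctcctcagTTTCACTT
In the next 3 stretches capitals mark the CRE core and the Y box. They are chr17:34000359-34000388 (minus strand) for H2-K1, chr17:35262993-35263022 (plus strand) for H2-D1 and chr2:122147609-122147638 (plus strand) for B2m.
H2-K1: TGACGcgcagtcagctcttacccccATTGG
H2-D1: TGACGcgctggcaggtctcactatcATTGG
B2m: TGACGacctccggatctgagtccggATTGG
In each of the 3 genes 20 bases separate the CRE core from the Y box. None of the other matched promoters of the group held this pair with 10 to 50 bases between them on 1 strand. B2m also held the IRF letters, at bases -137 to -130 from its start. Over 27025 RefSeq promoters, 1.08% held both with 10 to 50 bases between them on 1 strand, 0.64% held the kappa-B letters and 21.6% the IRF letters. The upstream windows of H2-K1 and H2-D1 were identical at 161 of 177 aligned bases (91.0%). These matches are letters in a window and were not measured as binding.

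Most of the genes lie in the MHC on chromosome 17 (GENCODE M21 annotation of GRCm38, the assembly called mm10): Tapbp at chr17:33915899-33929292, H2-K1 at chr17:33996017-34000347, Psmb9 at chr17:34181987-34187764, Tap1 at chr17:34187553-34197225, Psmb8 at chr17:34197721-34201454, Tap2 at chr17:34203527-34216321 and H2-D1 at chr17:35262730-35267499. Psmb9 and Tap1 are divergent neighbours whose RefSeq starts are 225 bases apart. B2m is on chromosome 2 (chr2:122147686-122153083), and Nlrc5 (chr8:94434356-94527272) and Psmb10 (chr8:105935735-105938444) are on chromosome 8.

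The immunoproteasome subunits were higher in the IL-33 libraries, Nlrc5 was lower, and the heavy chains, B2m, the transporter and tapasin were not past the threshold, on the FPKM scale (sequenced fragments normalised to transcript length and library size) as deposited. The test was limma on log2(FPKM + 1), with an adjusted p of 0.05 over all 11518 genes as the threshold. Of the 10 genes 3 were called higher and 1 lower. Among all tested genes 28% were called higher and 25.5% lower, so 3 of 10 lay near that background and 1 of 10 under it. Their median log2 change was 0.11 (range -0.62 to 0.44), beside 0.01 for all tested genes. That median was 0.043 without IL-33 replicate 2, 0.044 without PBS replicate 2 and 0.19 without PBS replicate 3. The 3 rises were lost under 3 other scalings of the libraries, under which 4 or 5 of the 10 genes were called lower. The summed FPKM of all genes was 778391 to 841884 in the IL-33 libraries and 614522 to 641412 in the PBS libraries. Setting these totals equal moved the median of all tested genes to -0.29, and 11.1% of genes were then called higher and 50.7% lower. Under quantile normalization these shares were 22.1% and 25%, and under cyclic loess 23.7% and 23%. Relative depth, estimated from the smallest steps of low FPKM values, was 0.945 to 1.07 in IL-33 and 1.00 to 1.22 in PBS libraries, with PBS replicate 1 as 1. Absolute depth is unknown, since FPKM carries no read count.

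**Figure D1:**
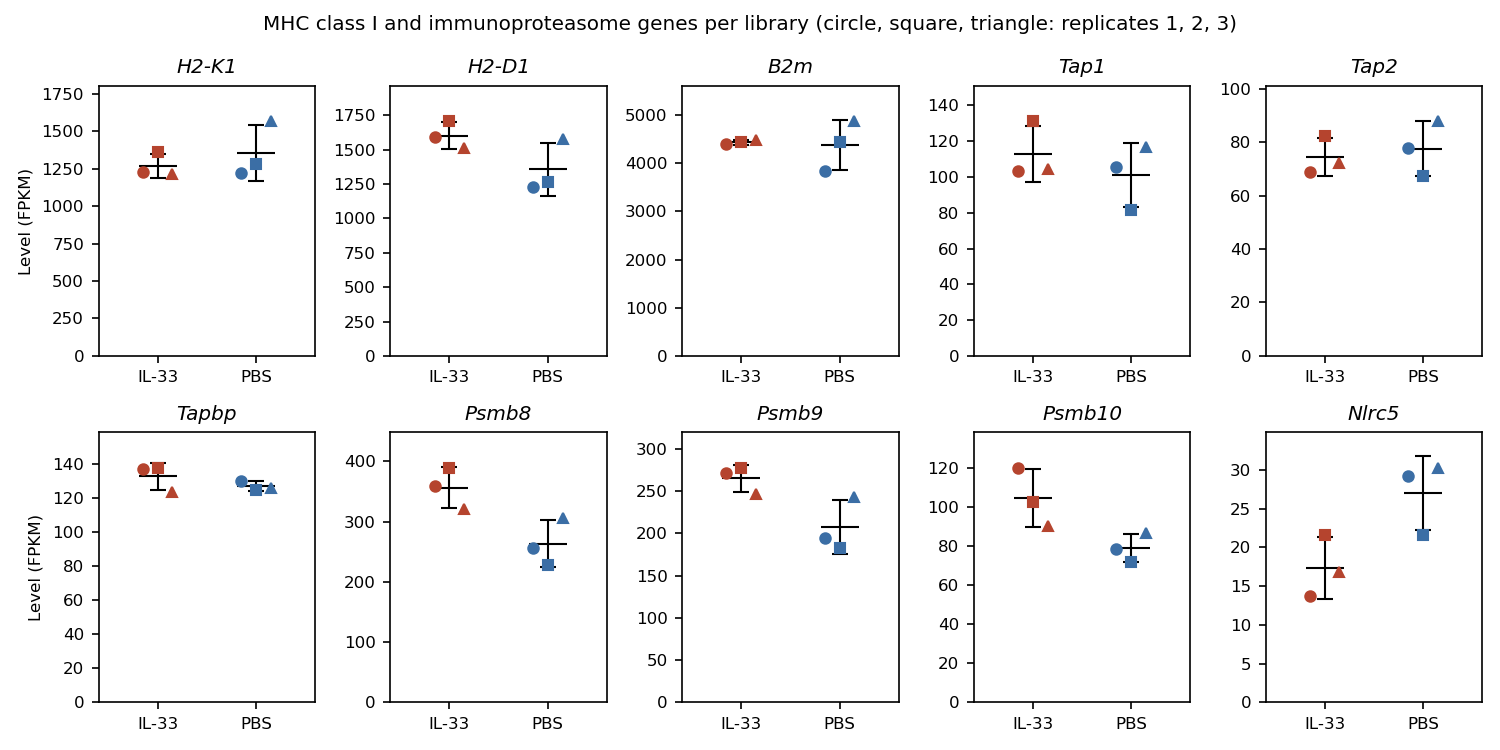
Level of each of the 10 genes in FPKM (vertical axes from 0) in the 3 IL-33 libraries (left) and the 3 PBS libraries (right). Points are libraries, with circle, square and triangle for replicates 1, 2 and 3, and bars are mean ± SD. Psmb8, Psmb9 and Psmb10 had every IL-33 point above every PBS point at the deposited scale, while the groups overlapped in the other genes.

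H2-K1 and H2-D1 encode the heavy chains that hold the peptide. H2-K1 stood at 1225, 1363 and 1217 FPKM in IL-33 replicates 1 to 3, against 1219, 1279.9 and 1567 FPKM in PBS replicates 1 to 3. The groups overlapped, and PBS replicate 3 was the highest of the 6. H2-K1 averaged 1268 ± 82.1 FPKM with IL-33 and 1355 ± 186 FPKM with PBS (SD, n = 3 each), a log2 change of -0.09 (SE 0.11, 95% interval -0.35 to 0.17, limma adjusted p = 0.523). H2-D1 stood at 1592, 1707 and 1509 FPKM in IL-33 libraries, against 1231, 1263 and 1575 FPKM in PBS libraries. Only PBS replicate 3 reached into the range of the IL-33 libraries. Its means were 1603 ± 99.6 FPKM with IL-33 and 1356 ± 190.1 FPKM with PBS, a log2 change of 0.25 that did not pass the threshold (SE 0.11, interval -0.01 to 0.51, adjusted p = 0.0974). Without PBS replicate 3 that change was 0.36 (limma adjusted p = 0.0171), and with cyclic loess scaling it was -0.28 (adjusted p = 0.0405). H2-K1 was called lower under equal totals (-0.43), quantile normalization (-0.53) and cyclic loess (-0.61).

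The ratio of the heavy chains to each other does not depend on the scaling of the libraries by a single factor. H2-D1 divided by H2-K1 was 1.30, 1.25 and 1.24 in the IL-33 libraries, against 1.01, 0.987 and 1.01 in the PBS libraries. Every IL-33 library was above every PBS library, with means of 1.26 ± 0.0315 and 1.00 ± 0.0119 (SD, n = 3 each). This ratio was chosen after its values were seen, so it is given without a test. The heavy chain genes are near copies in places: 9.63% of the 50-base windows of H2-K1 transcripts and 12.8% of those of H2-D1 also occur in another gene, among them H2-Q and H2-T genes and each other, so the split between them is uncertain.

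B2m, the light chain that every class I heavy chain needs, was the most abundant of the 10 genes. It stood at 4389, 4437 and 4490.3 FPKM in IL-33 libraries, against 3842, 4434 and 4872 FPKM in PBS libraries. The IL-33 libraries lay inside the PBS range, with a coefficient of variation of 1.14% in IL-33 and 11.8% in PBS libraries. Its means were 4439 ± 50.5 FPKM and 4382 ± 517 FPKM, and the log2 change of 0.03 (SE 0.10, interval -0.22 to 0.27) did not pass the threshold (limma adjusted p = 0.856). By mean FPKM, B2m ranked 15th of the tested genes in IL-33 libraries and 11th in PBS libraries. Under equal totals, quantile normalization and cyclic loess it was called lower, at -0.32, -0.44 and -0.58 on the log2 scale.

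The sum of H2-K1 and H2-D1 divided by B2m, all per length, was 0.642, 0.692 and 0.607 in IL-33 libraries, against 0.638, 0.574 and 0.645 in PBS libraries. The groups overlapped, and the log2 ratio differed by 0.06 (SE 0.08, exact two-sided permutation p = 0.5, adjusted over the 5 ratios tested p = 0.625). The smallest p that 3 against 3 libraries allow is 0.1.

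Tap1 and Tap2 form the transporter that carries peptides into the endoplasmic reticulum. Tap1 stood at 103, 131 and 104 FPKM in IL-33 libraries, against 106, 81.4 and 117 FPKM in PBS libraries. Tap2 stood at 69.0, 82.3 and 72.0 FPKM in IL-33 libraries, against 77.8, 67.1 and 87.8 FPKM in PBS libraries. Both genes overlapped between the groups, and within the groups both were highest in IL-33 replicate 2 and in PBS replicate 3. Neither passed the limma test, with log2 changes of 0.16 for Tap1 (SE 0.15, interval -0.19 to 0.51, adjusted p = 0.384) and -0.05 for Tap2 (SE 0.11, interval -0.32 to 0.21, adjusted p = 0.708). Tap1 reversed to between -0.17 and -0.13 under the other 3 scalings, and Tap2 was called lower under equal totals (-0.39, adjusted p = 0.0268).

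Within each library Tap1 divided by Tap2 was 1.50, 1.59 and 1.45 with IL-33, against 1.36, 1.21 and 1.33 with PBS. All 3 IL-33 values were above all 3 PBS values, at means of 1.51 ± 0.0731 and 1.30 ± 0.0762 (SD, n = 3 each). The log2 ratio differed by 0.22 (SE 0.06), with an exact permutation p = 0.1, the smallest possible, and 0.25 after adjustment over the 5 ratios. It stayed between 0.17 and 0.25 when any 1 library was left out. A stretch of 212 bases of Tap1 overlaps Psmb9 on the other strand, and whether the counting used strand is not stated.

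Tapbp encodes tapasin, which bridges the transporter and the empty class I molecule. It stood at 137, 138 and 123 FPKM in IL-33 libraries, against 130.2, 125 and 126 FPKM in PBS libraries. The groups overlapped, and of the 10 genes it had the smallest coefficient of variation among PBS libraries, 2.24%. Its log2 change of 0.06 (SE 0.07, interval -0.10 to 0.22) did not pass the threshold (limma adjusted p = 0.466), and it was called lower, at -0.28 to -0.26, under the other 3 scalings. Tapbp overlaps Zbtb22 on the same strand.

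The immunoproteasome genes were the 3 called higher at the deposited scale. Psmb8 (LMP7), the subunit with chymotrypsin-like activity, stood at 358, 389 and 321 FPKM in IL-33 libraries, against 256, 228 and 306 FPKM in PBS libraries. Psmb9 (LMP2), which replaces Psmb6, stood at 271, 278 and 247 FPKM in IL-33 libraries, against 195, 183 and 244 FPKM in PBS libraries. Psmb10 (MECL-1), which replaces Psmb7, stood at 120.1, 103 and 90.5 FPKM in IL-33 libraries, against 78.5, 72.0 and 86.6 FPKM in PBS libraries. In each gene the lowest IL-33 library, replicate 3, was just above the highest PBS library, also replicate 3. Such a separation was found in 32.7% of all tested genes, and the opposite one, which 0 of the 10 genes showed, in 30.9%.

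Mean levels of Psmb8 were 356 ± 34.1 FPKM with IL-33 and 263 ± 39.5 FPKM with PBS (1.35-fold, SD, n = 3 each). The log2 change was 0.44 for Psmb8 (SE 0.12, interval 0.16 to 0.73, limma adjusted p = 0.0189), 0.36 for Psmb9 (SE 0.11, interval 0.10 to 0.63, adjusted p = 0.0300) and 0.39 for Psmb10 (SE 0.12, interval 0.12 to 0.66, adjusted p = 0.0247). Psmb9 averaged 265 ± 16.4 FPKM with IL-33 and 207 ± 32.0 FPKM with PBS, and Psmb10 104 ± 14.9 FPKM with IL-33 and 79.1 ± 7.31 FPKM with PBS. These calls depended on scaling: under equal totals, quantile normalization and cyclic loess the changes were 0.10, 0.05 and 0.02 for Psmb8, 0.02, -0.019 and -0.036 for Psmb9, and 0.05, 0.11 and 0.10 for Psmb10, none past the threshold. Relative to the median of all genes, the changes of Psmb8, Psmb9 and Psmb10 were 0.39, 0.31 and 0.34 under equal totals. Under quantile normalization they were 0.07, -0.0053 and 0.12, and under cyclic loess 0.02, -0.042 and 0.09. Psmb8 lost its call without IL-33 replicate 1 (0.43, adjusted p = 0.0542), IL-33 replicate 2 (0.38, 0.0630) or PBS replicate 2 (0.34, 0.0588). Psmb9 and Psmb10 kept theirs only without IL-33 replicate 3 (0.41 and 0.49) or PBS replicate 3 (0.48 and 0.46). Leaving out IL-33 replicate 1 or 2 or PBS replicate 1 or 2 gave 0.28 to 0.35 for Psmb9 and 0.29 to 0.40 for Psmb10.

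**Figure D2:**
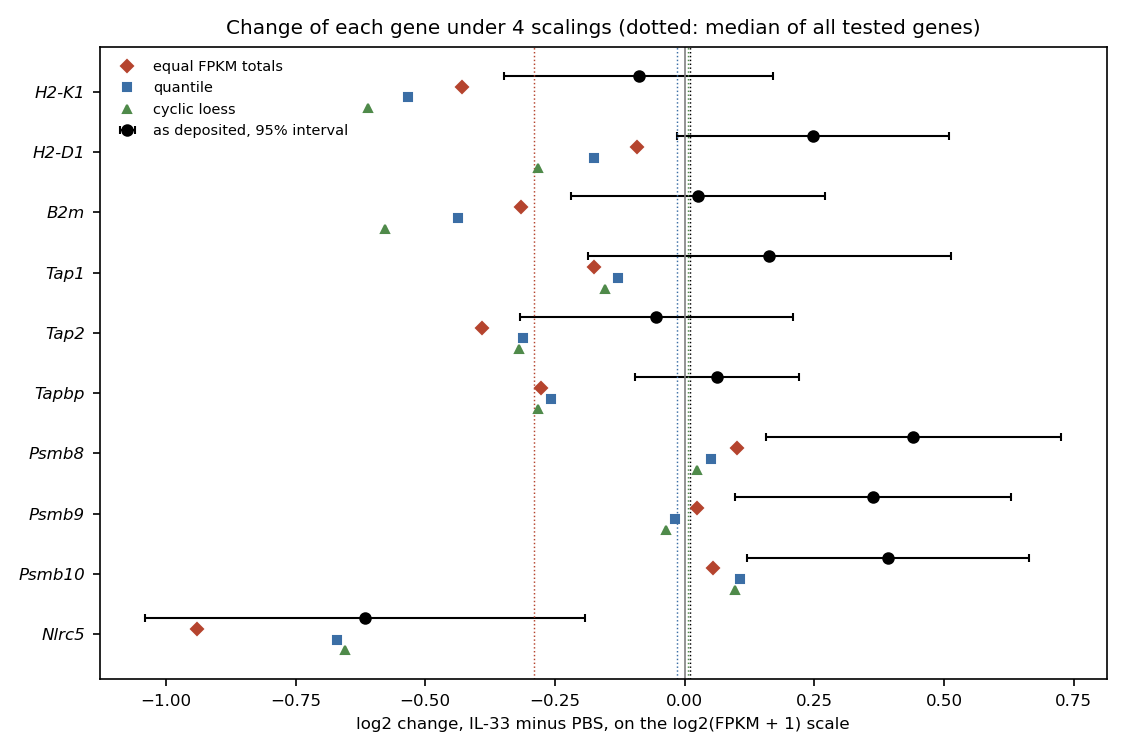
Change of each of the 10 genes (IL-33 minus PBS, log2 scale, horizontal axis) at the deposited scale with its 95% interval and under equal FPKM totals, quantile normalization and cyclic loess. Dotted lines mark the median of all tested genes under each scaling. Psmb8, Psmb9 and Psmb10 lie at 0.36 to 0.44 as deposited and between -0.04 and 0.11 under the other scalings, while Nlrc5 is below 0 under all 4.

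The constitutive subunits that the immunoproteasome subunits replace were higher too. Psmb5 stood at 129, 109.6 and 105 FPKM in IL-33 libraries, against 68.1, 64.5 and 72.6 FPKM in PBS libraries. Psmb6 stood at 124, 119 and 113 FPKM in IL-33 libraries, against 78.6, 72.5 and 89.1 FPKM in PBS libraries. Psmb7 stood at 167, 150.2 and 144 FPKM in IL-33 libraries, against 109, 112 and 129.5 FPKM in PBS libraries. All 3 were separated between the groups, with log2 changes of 0.73, 0.57 and 0.39 (limma adjusted p = 0.00106, 0.00201 and 0.00953). Psmb5 and Psmb6 also passed under the other 3 scalings (0.23 to 0.45), and Psmb7 did not (0.05 to 0.07).

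Each immunoproteasome subunit was also set against its constitutive partner within a library, where an exact test of 3 against 3 libraries cannot give a p under 0.1. Psmb8 divided by Psmb5 was 2.79, 3.55 and 3.06 in IL-33 libraries, against 3.76, 3.54 and 4.21 in PBS libraries. IL-33 replicate 2 reached just into the PBS range, and the log2 ratio differed by -0.29 (SE 0.13, exact permutation p = 0.2, adjusted p = 0.333 over the 5 ratios). Psmb9 divided by Psmb6 was 2.18, 2.33 and 2.17 in IL-33 libraries, against 2.48, 2.53 and 2.73 in PBS libraries. Here every IL-33 library was below every PBS library, with means of 2.23 ± 0.0905 and 2.58 ± 0.135 (SD, n = 3 each). That log2 difference was -0.21 (SE 0.05, exact permutation p = 0.1, the smallest possible, adjusted p = 0.25). Psmb10 divided by Psmb7 was 0.721, 0.684 and 0.629 in IL-33 libraries, against 0.723, 0.642 and 0.669 in PBS libraries, with overlapping groups and a log2 difference of -0.0013 (SE 0.08, exact permutation p = 1). Of the transcript windows of Psmb5, 54.1% also occur in another gene, most of them in a processed pseudogene, so the Psmb5 values and that ratio are uncertain.

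**Figure D3:**
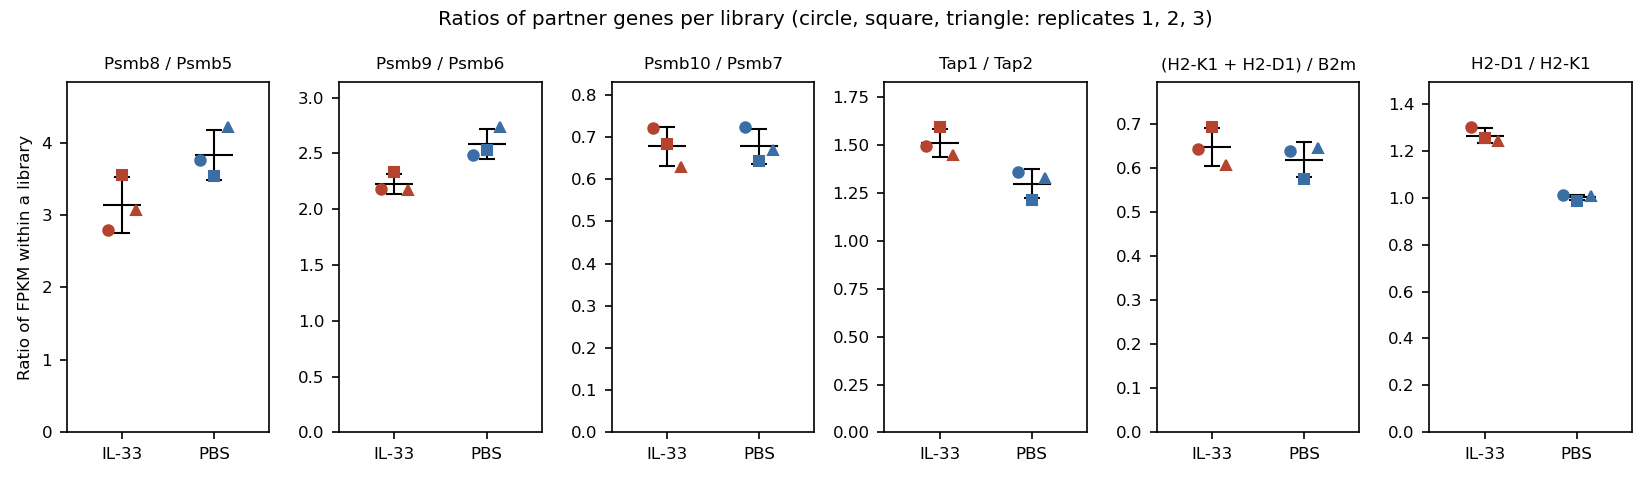
Ratio of the FPKM of partner genes within a library (vertical axes from 0) in the 3 IL-33 libraries (left) and the 3 PBS libraries (right). Points are libraries, with circle, square and triangle for replicates 1, 2 and 3, and bars are mean ± SD. Psmb9 to Psmb6 is lower in every IL-33 library (2.17 to 2.33) than in any PBS library (2.48 to 2.73), and Tap1 to Tap2 and H2-D1 to H2-K1 are higher in every IL-33 library.

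Across the 20S proteasome, the barrel that holds these subunits, 14 of 14 constitutive genes were called higher (median 0.51, range 0.34 to 0.74), also when any 1 library was left out, and 5, 5 and 6 of them under equal totals, quantile normalization and cyclic loess. The largest changes were those of Psma7, a ring subunit, at 0.74 (limma adjusted p = 0.000742), Psmb5 at 0.73 and Psmb4 at 0.72 (adjusted p = 0.00118). Among these 14 subunits 9 had a larger log2 change than Psmb8, 12 a larger one than Psmb10 and 13 a larger one than Psmb9. Of 7 genes for proteasome activators and assembly factors 3 were called higher and 1 lower at the deposited scale (median 0.19). Psme2, a subunit of the PA28 activator, averaged 369 ± 18.7 FPKM with IL-33 and 298 ± 31.5 FPKM with PBS, and Pomp, the maturation factor of new proteasomes, 320.1 ± 33.5 FPKM with IL-33 and 253 ± 15.8 FPKM with PBS. Both lost their call without IL-33 replicate 1 or 2 or PBS replicate 1 or 2, at 0.27 to 0.29 for Psme2 and 0.26 to 0.33 for Pomp. The log2 changes of 0.31 and 0.33 over all libraries turned to between -0.11 and -0.0055 under the other 3 scalings. Psme4, the activator PA200, was lower at all 4 scalings and stood at 13.6 ± 0.0695 FPKM with IL-33 and 17.3 ± 0.427 FPKM with PBS (log2 change -0.32, limma adjusted p = 0.00438).

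Nlrc5, the transactivator of class I genes, was the 1 gene of the 10 called lower. It stood at 13.7, 21.62 and 16.8 FPKM in IL-33 libraries, against 29.2, 21.59 and 30.3 FPKM in PBS libraries. The groups touched only at replicate 2, where the IL-33 library was just above the PBS library. Means were 17.4 ± 3.99 FPKM with IL-33 and 27.0 ± 4.73 FPKM with PBS (SD, n = 3 each), a 0.643-fold level. Its log2 change was -0.62 (SE 0.18, interval -1.04 to -0.19, limma adjusted p = 0.0240), and the exact permutation test of this gene alone gave p = 0.2. The change was below 0 in all 17 alternatives (-0.94 to -0.38) and past the threshold in 12 of them, the other 3 scalings included (-0.94, -0.67 and -0.65). The call was lost with library weights (-0.38, adjusted p = 0.105) and without IL-33 replicate 1 (-0.47, 0.0732), IL-33 replicate 3 (-0.60, 0.0600), PBS replicate 1 (-0.55, 0.0696) or PBS replicate 3 (-0.53, 0.0651). By mean FPKM, Nlrc5 ranked 4617 of the tested genes with IL-33 and 3180 with PBS.

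Other regulators of MHC transcription were lower or not past the threshold. Of 15 such genes 7 were called lower and 0 higher by limma at the deposited scale (median -0.29), with 1 higher at an unadjusted p under 0.05, and 9 to 13 were called lower under the other scalings. Nfkb1, an NF-kappaB subunit, averaged 77.6 ± 3.11 FPKM with IL-33 and 120.2 ± 7.60 FPKM with PBS (log2 change -0.62, adjusted p = 0.000768). Rfx5 and Creb1 encode proteins that bind the SXY module. Rfx5 averaged 12.9 ± 1.30 FPKM with IL-33 and 18.6 ± 0.602 FPKM with PBS (-0.50, adjusted p = 0.00298), and Creb1 10.5 ± 0.798 FPKM with IL-33 and 15.1 ± 0.441 FPKM with PBS (-0.48, adjusted p = 0.00224). Ciita, the class II counterpart of Nlrc5, was also called lower (72.1, 81.8 and 75.0 FPKM with IL-33, against 101, 89.3 and 83.8 FPKM with PBS, -0.26, adjusted p = 0.0429). The Ciita call was lost without IL-33 replicate 1 (-0.22), IL-33 replicate 3 (-0.24), PBS replicate 1 (-0.18) or PBS replicate 2 (-0.27). It was also lost without the expression filter (limma adjusted p = 0.0598) and with library weights (0.0549).

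Irf1, an interferon-induced factor of class I promoters, stood at 95.6, 124.5 and 91.5 FPKM in IL-33 libraries, against 129.9, 114 and 156 FPKM in PBS libraries. As with Nlrc5, IL-33 replicate 2 was the highest of its group and PBS replicate 2 the lowest of its group, and the groups overlapped there. Irf1 did not pass the limma threshold as deposited (log2 change -0.36, adjusted p = 0.0765), and was called lower under the other 3 scalings.

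Within each group the same library was the highest for most of the 10 genes. IL-33 replicate 2 was the highest of its group for 8 of the 10 genes and the lowest for 0. PBS replicate 3 was the highest of its group for 9 and the lowest for 0, and PBS replicate 2 was the lowest for 7. IL-33 replicate 3 was the lowest for 6 genes and IL-33 replicate 1 for 4, and PBS replicate 1 was the lowest for 3. How many of all tested genes had the same order was not counted. Markers of NK cells moved between libraries as well. The summed FPKM of 8 NK cell markers was 127, 233 and 132 in IL-33 libraries, against 352, 378 and 406 in PBS libraries. By this sum IL-33 replicate 2 and PBS replicate 3 were again the highest of each group. Gzma made up the largest part of it, at 184, 205 and 235 FPKM in PBS libraries. Klrk1, Eomes, Prf1 and Klra4 were also highest in PBS replicate 3, but Ncr1, Klrb1c and Klre1 had their lowest PBS value there. The summed FPKM of 9 T cell markers was 83.5, 93.4 and 70.7 in IL-33 libraries, against 265, 184 and 373 in PBS libraries. Its highest value of each group was in IL-33 replicate 2 and PBS replicate 3 too. The sum of 8 neutrophil markers was also highest there, at 2007, 2451 and 1214 FPKM with IL-33 and 727, 474 and 783 FPKM with PBS. In PBS libraries that sum came mainly from S100a8 (354, 233 and 367 FPKM) and S100a9 (316, 206 and 371 FPKM). Ngp, Camp, Ltf, Retnlg and Mmp8 were highest in PBS replicate 1, and Elane, below the expression filter, in PBS replicate 3. None of the other marker lists had its highest IL-33 sum in replicate 2. By these sums PBS replicate 2 was the lowest PBS library for T cell and neutrophil markers, and PBS replicate 1 for NK cell markers. All 8 NK and all 9 T cell markers were called lower with IL-33, and none of them was at 0 in any library. The 7 tested neutrophil markers were all called higher. The part of these cells in the levels of Nlrc5 or the other 9 genes was not tested.

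**Figure D4:**
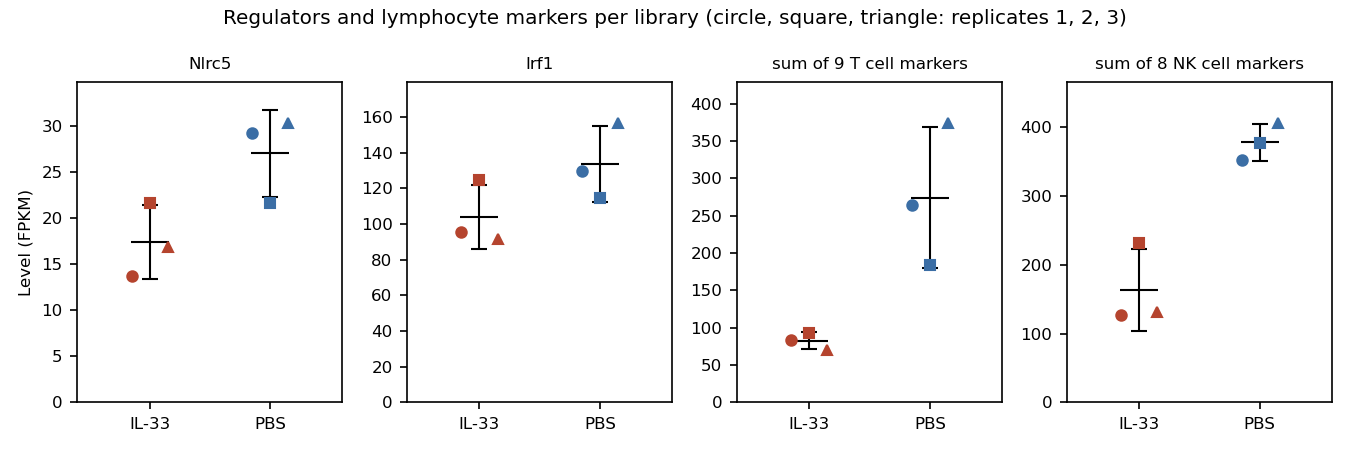
Levels of Nlrc5 and Irf1 and the summed levels of 9 T cell and 8 NK cell markers in FPKM (vertical axes from 0) in the 3 IL-33 libraries (left) and the 3 PBS libraries (right). Points are libraries, with circle, square and triangle for replicates 1, 2 and 3, and bars are mean ± SD. In each panel replicate 2 is the highest IL-33 library and replicate 3 the highest PBS library. Within the NK cell sum, Ncr1, Klrb1c and Klre1 had their lowest PBS value in replicate 3.

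Over the 6 libraries the mean centred log2(FPKM + 1) of the 10 genes was 0.02, 0.16 and -0.04 in IL-33 libraries and -0.08, -0.19 and 0.13 in PBS libraries. The tested genes outside the group whose values followed this profile most closely were Sergef (Pearson r = 0.982), Ubash3b (0.978) and Sharpin (0.977), picked as the highest of all tested genes, and none of them was past the threshold. Sergef stood at 7.15, 8.62 and 7.02 FPKM in IL-33 libraries, against 6.64, 5.90 and 7.83 FPKM in PBS libraries.

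As a share of the summed FPKM of all genes, the 10 genes made up 0.983%, 1.11% and 1.05% in IL-33 libraries, against 1.17%, 1.21% and 1.41% in PBS libraries. Every IL-33 library was below every PBS library in this share, most of which came from H2-K1, H2-D1 and B2m. The FPKM totals that it is divided by were all higher in the IL-33 libraries. With totals set equal, the median log2 change was -0.29 over all tested genes and -0.23 over the 10 genes. Of all tested genes 50.7% were then called lower by limma. How many other genes were separated in their share was not counted. The share of Psmb8, Psmb9 and Psmb10 was 0.0890%, 0.0989% and 0.0841% in IL-33 libraries, against 0.0862%, 0.0754% and 0.0993% in PBS libraries, and overlapped.

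Genes that work beside the class I heavy chain in the endoplasmic reticulum were counted in the same way. Of 9 loading and trimming genes 3 were called higher and 2 lower at the deposited scale (median 0.05), and 1 was called higher without IL-33 replicate 1 or without IL-33 replicate 2. Under equal totals, quantile normalization and cyclic loess 5 were called lower each time, at most 1 was called higher, and the median was between -0.29 and -0.18. Tapbpl, a tapasin-like peptide editor, stood at 23.6, 28.1 and 26.3 FPKM in IL-33 libraries, against 36.2, 30.4 and 38.1 FPKM in PBS libraries (log2 change -0.41, limma adjusted p = 0.0138). Erap1, the aminopeptidase that trims peptides for class I, stood at 25.3, 26.6 and 29.1 FPKM in IL-33 libraries, against 32.5, 34.9 and 33.0 FPKM in PBS libraries (-0.30, adjusted p = 0.0121). Both were separated between the groups and called lower at all 4 scalings. Sec61a1, the channel of the translocon, averaged 74.8 ± 2.23 FPKM with IL-33 and 55.9 ± 1.86 FPKM with PBS (0.41, adjusted p = 0.00174) and was past the threshold under quantile normalization and cyclic loess but not under equal totals.

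Among 21 other class I and class I-like heavy chains 16 were tested, of which 2 were called higher, 3 lower and 11 neither (median -0.14). Under equal totals 1 was called higher and 9 lower, and under quantile normalization and under cyclic loess 1 and 5, with medians below 0 each time. Without IL-33 replicate 1 only 1 was called lower, without PBS replicate 3 the counts were 4 higher and 2 lower (median -0.03), and without PBS replicate 2 the median was -0.26. Fcgrt, the neonatal Fc receptor, which pairs with B2m, averaged 178 ± 7.68 FPKM with IL-33 and 104 ± 22.7 FPKM with PBS (0.79, limma adjusted p = 0.00397). H2-T24 averaged 12.1 ± 0.561 FPKM with IL-33 and 17.7 ± 1.27 FPKM with PBS (-0.51, adjusted p = 0.00190). H2-K2 averaged 62.2 ± 1.56 FPKM with IL-33 and 49.5 ± 3.77 FPKM with PBS (0.33, adjusted p = 0.00828), but it was not past the threshold under any of the other 3 scalings. H2-T23, the heavy chain of Qa-1, averaged 335 FPKM with IL-33 and 289 FPKM with PBS and did not pass (0.21, adjusted p = 0.0611), and was chosen after its values were seen. Its log2 change reversed to between -0.21 and -0.13 under the other 3 scalings, also not past the threshold.

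MHC class II genes present peptides from endosomes to CD4 T cells. Of 9 class II presentation genes 6 were called higher and 1 lower as deposited (median 0.52). The counts were 5 higher and 3 lower under equal totals (median 0.18) and 3 and 3 under quantile normalization (median 0.11). Under cyclic loess the median was -0.11 with 2 higher and 3 lower. H2-DMa and H2-DMb1, the chains of the peptide editor H2-M, had log2 changes of 0.89 and 0.85 (limma adjusted p = 0.000256 and 0.000322), and the class II chain H2-Ab1 of 0.69 (adjusted p = 0.00119). The H2-Ab1 call was lost under cyclic loess (0.07, adjusted p = 0.234). The sum of H2-Aa, H2-Ab1 and H2-Eb1 divided by the sum of H2-K1 and H2-D1 was 7.89, 6.58 and 7.67 in IL-33 libraries, against 5.37, 5.70 and 4.68 in PBS libraries. Every IL-33 library was above every PBS library. This ratio was chosen after its values were seen and is given without a test.

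Of 25 genes of the interferon response 8 were called higher, 1 lower and 16 neither (median 0.07). The counts were 5 higher and 11 lower under equal totals (median -0.25), 7 and 4 under quantile normalization, and 7 and 3 under cyclic loess. The median was 0.02 without IL-33 replicate 2 and -0.01 without PBS replicate 2. Gbp3 and Gbp2, guanylate-binding proteins induced by interferon-gamma, had log2 changes of 1.50 and 1.48, and Isg15, a ubiquitin-like protein, of 1.28, all past the threshold at all 4 scalings. Cxcl9, a chemokine induced by interferon-gamma, was the 1 gene called lower as deposited (-0.77, limma adjusted p = 0.0350). Cxcl9 lost that call without IL-33 replicate 1 (-0.59), IL-33 replicate 3 (-0.84) or PBS replicate 1 (-0.49). It also lost the call without the expression filter (limma adjusted p = 0.0708), with robust variance (0.0540) and with library weights (0.0593). Cxcl10, another chemokine of the list, was called higher (1.04, limma adjusted p = 0.00212). The changes of the 10 class I genes, -0.62 to 0.44, lie inside the range of this list.

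Of 12 cross-presentation genes 7 were called higher and 4 lower (median 0.20). Under equal totals, quantile normalization and cyclic loess 2 were called higher each time and 5, 6 and 6 lower, with medians between -0.15 and -0.13. The count called higher was 4 without IL-33 replicate 1, IL-33 replicate 2 or PBS replicate 1. Sec61b, a translocon subunit, averaged 382 ± 33.7 FPKM with IL-33 and 188 ± 11.2 FPKM with PBS (1.02, limma adjusted p = 0.000293). Vamp8, a SNARE protein of endosomes, changed by 0.85, and Cybb, the catalytic subunit of the phagocyte oxidase, by -0.66 (adjusted p = 0.00122 and 0.00130). Markers of type 1 conventional dendritic cells, the subset known for cross-presentation, summed to 309.5 to 351 FPKM in IL-33 libraries and 409.7 to 431 FPKM in PBS libraries. Of these 8 markers 6 were called lower and 1 higher, and none was at 0 in any library. The higher one, Itgae, averaged 16.2 ± 2.72 FPKM with IL-33 and 3.02 ± 0.625 FPKM with PBS (2.10, limma adjusted p = 0.000201). Its change was the largest of the 8, beside a lowest change of -1.03. Batf3, counted with the markers of all conventional dendritic cells, was also called higher (1.50, limma adjusted p = 7.52e-05). Of the 8 markers of that list 4 were called higher and 3 lower, the lower ones being Zbtb46 (-0.63), Flt3 (-0.61) and Ciita (-0.26). The part of these markers in these results was not tested.

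Receptors that read class I molecules were mostly lower. Of 13 such genes 9 were called lower and 1 higher (median -0.86, and -1.19 to -1.01 under the other scalings). Klrd1, the CD94 chain of NK receptors for Qa-1, averaged 80.1 ± 4.48 FPKM with IL-33 and 166 ± 13.1 FPKM with PBS (-1.04, limma adjusted p = 0.000235). The Ly49 genes Klra8 and Klra7 changed by -1.59 and -1.29 (adjusted p = 0.000457 and 0.00127). These genes moved beside the NK and T cell markers given above.

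**Figure D5:**
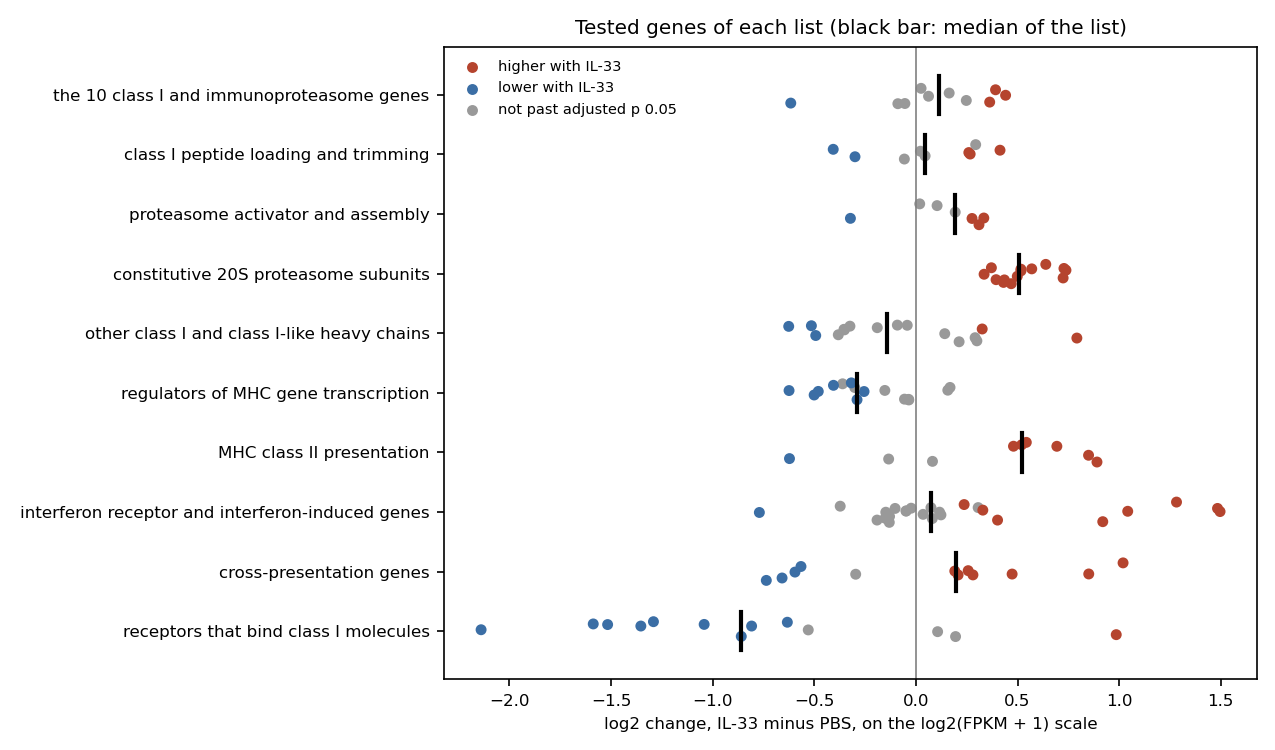
Log2 change (IL-33 minus PBS, deposited scale, horizontal axis) of the tested genes of each list, with the 10 class I and immunoproteasome genes in the top row. Each point is a gene, red where called higher, blue where called lower and grey where not past an adjusted p of 0.05, and black bars are list medians. The 14 constitutive 20S subunits lie at 0.34 to 0.74, and the 10 genes at -0.62 to 0.44.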

How the data were processed

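The authors deposited 1 table of FPKM values per gene for each of 6 libraries (mouse splenic CD11c+ cells, 3 with IL-33 and 3 with PBS). Cuffnorm 2.2.1, SAMtools 0.1.19, Bowtie2 2.2.3 and TopHat2 2.0.13 were used with the build mm10, per the submitters' processing notes. A stranded mRNA kit was used, per the labels' protocols. Annotation, library scaling and strand use are not given in the sources, so values of overlapping or near-identical genes are uncertain.

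The 11518 of 24346 genes that reached 1 FPKM in 3 or more libraries were analysed as log2(FPKM + 1) with limma 3.58.1 (R 4.3.3; variance trend, no block), two-sided, with Benjamini-Hochberg adjustment over all of them. The pseudocount of 1 understates changes of low genes. The code was tested on simulated data. Ratios of FPKM within a library were compared by exact two-sided permutation tests and adjusted over the 5 ratios.

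The 10 genes, the 9 pathway lists and the 12 marker lists were chosen with earlier results of these data known. Some genes count both in a pathway list and in a marker list, so those counts are not separate results. H2-Ab1 and Cd74 (class II) and Ciita (regulators) are also markers of all conventional dendritic cells. Irf8 (regulators) and Clec9a and Wdfy4 (cross-presentation) are also markers of type 1 conventional dendritic cells. Named were the 10 genes, up to 3 genes with the smallest adjusted p of each pathway list, Psmb5, Psmb6, Psmb7, Irf1, Ciita, Rfx5 and the 3 genes of most similar profile. Cxcl9, Cxcl10, H2-Aa, H2-Eb1, H2-T23, Itgae, Batf3, Zbtb46, Flt3 and the single NK cell and neutrophil markers were added after their values were seen. A further gene of the rule and of a pathway list is not reported here and was left out of that list's counts. Of the marker lists, those of T, NK and type 1 conventional dendritic cells are given beside the results, and the counts of the others in the closing section. The neutrophil sums were set beside the T and NK sums after their values were seen. Same-numbered libraries deviated together at r = 0.0750, -0.0544 and 0.0890, so the numbers were not treated as pairs. Positions came from GENCODE M21 (GRCm38), promoters from RefSeq (GRCm38.p6). Alternatives were other pseudocounts (0.1 and 5), no filter or 5 FPKM, 3 other scalings, other variance settings, a replicate block, library weights and leaving out each library.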

Additional observations from a re-analysis of the deposited data

How the results depend on the processing

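The 3 other scalings ended the calls of Psmb8, Psmb9 and Psmb10 and turned other directions, and the cause of each change below was not tested. Of the 10 genes, 0 were called higher by limma (0 also at an unadjusted p under 0.05) and 5, 4 and 5 lower under equal totals, quantile normalization and cyclic loess, with medians of -0.23, -0.22 and -0.28. In that order of scalings the log2 change reversed to -0.093, -0.18 and -0.28 for H2-D1, -0.32, -0.44 and -0.58 for B2m, -0.17, -0.13 and -0.15 for Tap1, and -0.28, -0.26 and -0.28 for Tapbp. Psmb9 reversed to -0.019 and -0.036 under quantile normalization and cyclic loess. With the replicate number as a block, 1 of the 10 genes was called higher (Psmb10, adjusted p = 0.0452), since Psmb8 and Psmb9 moved to 0.05001 and 0.0658, and Nlrc5 remained lower (0.0491). With library weights 0 genes were called lower (0 at an unadjusted p under 0.05), and Tap2 reversed to 0.071. Leaving out 1 library gave 0 to 4 genes higher and 0 to 1 lower by limma. Where it gave 0 higher, 2 or 3 passed at an unadjusted p under 0.05, and where it gave 0 lower, 1 did. The log2 change then ranged over -0.16 to 0.020 for H2-K1 (above 0 without PBS replicate 3), -0.066 to 0.11 for B2m (below 0 without PBS replicate 1) and -0.15 to 0.038 for Tap2 (above 0 without PBS replicate 3). The log2 difference of Psmb10 to Psmb7, near 0 as deposited, was 0.039 under quantile normalization and -0.047 to 0.052 when 1 library was left out. Without the expression filter, Psmb9 missed the threshold (adjusted p = 0.0532). With the replicate block, 3 of 12 cross-presentation genes and 1 of 9 loading genes were called higher, and Ciita, Cxcl9, Psme2 and Pomp lost their calls. Over the 17 alternatives Psmb8 was called in 10, Psmb9 in 8, Psmb10 in 10 and Nlrc5 in 12. Outside the deposited scale and the 3 other scalings, the share of all tested genes called was not counted. Counts of calls in those further settings therefore have no background beside them and are not results about the 10 genes. Counting depth is unknown for FPKM, so it sets no interval here.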

Other observations

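Markers of other cells that a CD11c sort of spleen can hold also differed between the groups at the deposited scale. Of 8 eosinophil markers 6 were called higher with IL-33 by limma (median log2 change 4.18), with summed levels of 273 to 533 FPKM in IL-33 libraries and 42.4 to 67.0 FPKM in PBS libraries. All 7 tested neutrophil markers (median 2.01) and 7 of 8 plasma cell markers (median 1.29) were higher. Among 8 plasmacytoid dendritic cell markers 5 were lower and 0 higher (0 at an unadjusted p under 0.05). Of 8 B cell markers 2 were lower and 6 not past the threshold, and of 8 red pulp macrophage markers 2 were higher. Monocyte markers (2 higher and 3 lower of 8), type 2 conventional dendritic cell markers (3 and 3 of 8) and markers of all conventional dendritic cells (4 and 3 of 8) went both ways. Class I genes are expressed by nearly all of these cell types, and the part of each in the 10 genes was not tested.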
